A study of Mus musculus with 9 samples.

Results

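Transcript levels in osteocyte-enriched bone of CD-1 mice on day 12 of lactation were compared with those of virgin mice. The comparison takes in 6 of the 9 arrays of the series, 3 from each group, and they were chosen by their titles. Each array read 45101 probe sets, which were assigned to 18194 genes. Both groups were 16 to 18 weeks old, and the lactating mice nursed litters of 8 to 13 pups. The other 3 arrays came from mice killed 7 days after weaning on lactation day 12, and they entered only to share the estimate of the spread. The tissue was the shaft of the tibia, freed of marrow and outer membrane and then digested repeatedly with enzymes and EDTA, so that mostly cells buried in bone were left. The labels do not tell how many mice stand behind an array. The p-values below therefore take in only the variation among these samples, which may be technical. The source field of the arrays taken after weaning reads virgin, against their titles, and 1 sentence of the preparation text speaks of femurs.

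Osteocytes are the cells that bone-forming osteoblasts become when the matrix closes around them. They signal to both other bone cell types: sclerostin, encoded by Sost, holds back formation, and RANKL, encoded by Tnfsf11, drives the making of osteoclasts. Osteoclasts are large cells with several nuclei that form by fusion of blood-borne precursors, pump acid onto bone with a vacuolar proton pump, and cut the exposed collagen with cathepsin K. In lactation the mother draws on her skeleton for milk calcium, and osteocytes themselves are known to remove mineral and matrix from the walls of their lacunae. The purpose of the series was to find the genes by which they do so. Bone marrow next to this tissue makes red cells, neutrophils and lymphocytes, and their transcripts can be carried along.

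The arrays fell into 3 sets by exactly equal values, which arrays of 1 set shared and arrays of different sets almost never did, with every group present once in each. What the sets stand for is not stated in the sources used here, nor is why ties were rarer in set 1. Virgin array 1 and lactation array 3 were in set 1, set 2 held virgin array 2 and lactation array 2, and set 3 held virgin array 3 and lactation array 1. All differences below are lactation minus virgin on the log2 scale, taken within a set and averaged over the 3 sets. The standard error (SE) and the p-value come from a limma fit with the set as a block. Exact ties between the lactation and the virgin array, at a difference of 0, made up 2.72% of probe sets in set 1, 41.7% in set 2 and 44.1% in set 3. A floor was set at 4.87, the 40th percentile over genes, and a fold is given as a lower limit where only 1 group's mean was under it.

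Virgin arrays 1 and 3 stood apart from the others in their cell type markers. Osteocyte genes averaged 3.26 log2 units above the array median on virgin array 1, against 4.55 and 4.97 on the other virgin arrays and 4.42 to 4.66 on the lactation arrays. Neutrophil genes averaged 7.71 there, against 6.67 to 6.84 on the other virgin arrays and 6.38 to 7.19 on the lactation arrays, and B lymphocyte genes averaged 1.56, against 2.33 to 2.93 on the other 5 arrays. On virgin array 3 the periosteum and tendon list averaged 2.23, against 0.56 to 1.10 elsewhere. Prg4, which encodes the joint lubricant lubricin, read 9.72 on that array and between 3.32 and 4.18 on the others. Fmod, the tendon proteoglycan fibromodulin, read 7.31 to 8.79 on the other 5 arrays and differed by -2.42 in set 3, the set of virgin array 3, and by 1.14 and 0.01 in sets 1 and 2. Prg4 and Fmod were chosen after their values were seen. Results are therefore also given without set 1 and without set 3. In a piece of tissue, fewer cells of a type and less RNA per cell cannot be told apart.

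**Figure D1:**
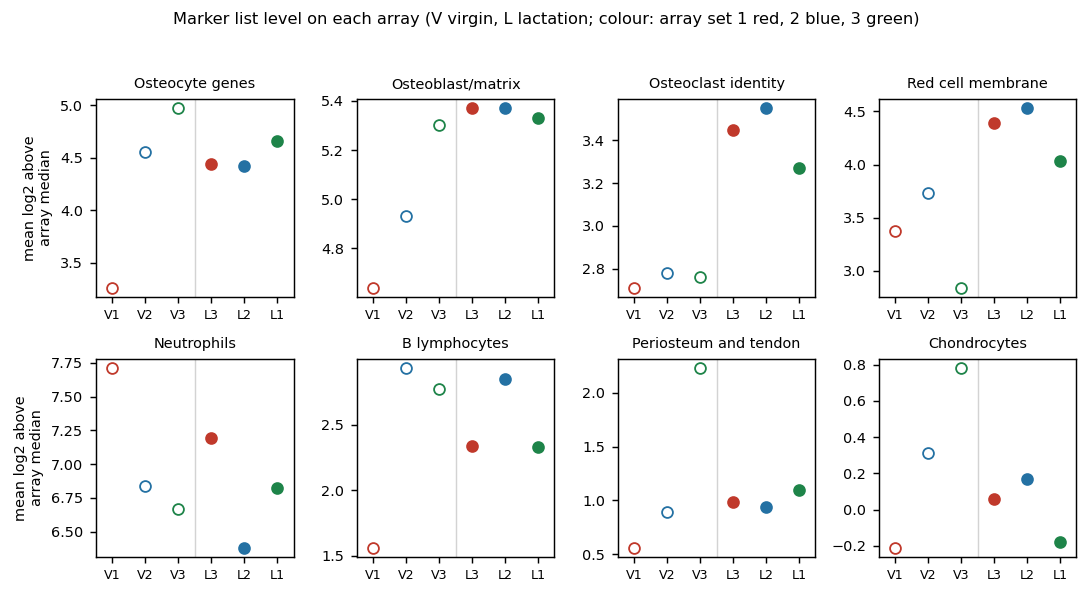
Mean log2 signal of 8 marker lists above the median of each array, with open circles for virgin and filled circles for lactation arrays, coloured by array set. The osteocyte list lies at 3.26 on virgin array 1 and at 4.42 to 4.97 on the other 5 arrays, and the periosteum and tendon list at 2.23 on virgin array 3 and at 0.56 to 1.10 on the others.

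No probe set passed an adjusted p of 0.05 in the limma fit with Benjamini-Hochberg adjustment, which is 0% of 45101. The smallest adjusted p was 0.0776, for Cxcl3. In the limma fit with only the 6 compared arrays the smallest over all probe sets was 0.512. An unadjusted p under 0.05 in the limma fit was found for 2788 probe sets. If none differed and p-values were evenly spread, 2255 would be expected. That even spread was not tested, and exact ties were common in sets 2 and 3. The number was 551 without the set block and 1360 without set 2, so 2788 is not read as an excess. With 1 probe set per gene, 4 of 18194 genes (0.022%) were called, all higher in lactation: Cxcl3, Dcstamp, Tlcd4 and Cpox. Among genes, 1050 (5.77%) were higher and 413 (2.27%) lower with an unadjusted p under 0.05, 1886 (10.4%) were higher in every set and 1112 (6.11%) lower in every set. Exact ties lower these last shares: 10482 of the 18194 genes were tied at 0 in at least 1 set and could count in neither direction. A group mean above the floor was found for 11068 genes, but for all 17 resorption effectors described below. The share of ties within each list was not tested, so contrasts of list counts with all genes may be overstated. In 374 genes (2.06%) all lactation arrays read above all virgin arrays, and in 127 genes (0.698%) all read below. Here and below, overlap of groups was judged on the deposited values, across sets with different array medians. On the virgin arrays the medians were 4.32 in set 1, 4.82 in set 2 and 4.57 in set 3. Close calls of overlap or no overlap can therefore reflect the set, and the within-set differences do not have this limit. Over all genes the median difference was 0.01. Across genes, the within-set differences of sets 2 and 3 correlated with r = 0.51, those of sets 1 and 2 with 0.18 and those of sets 1 and 3 with -0.05; genes are not independent replicates, and these values describe the arrays.

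**Figure D2:**
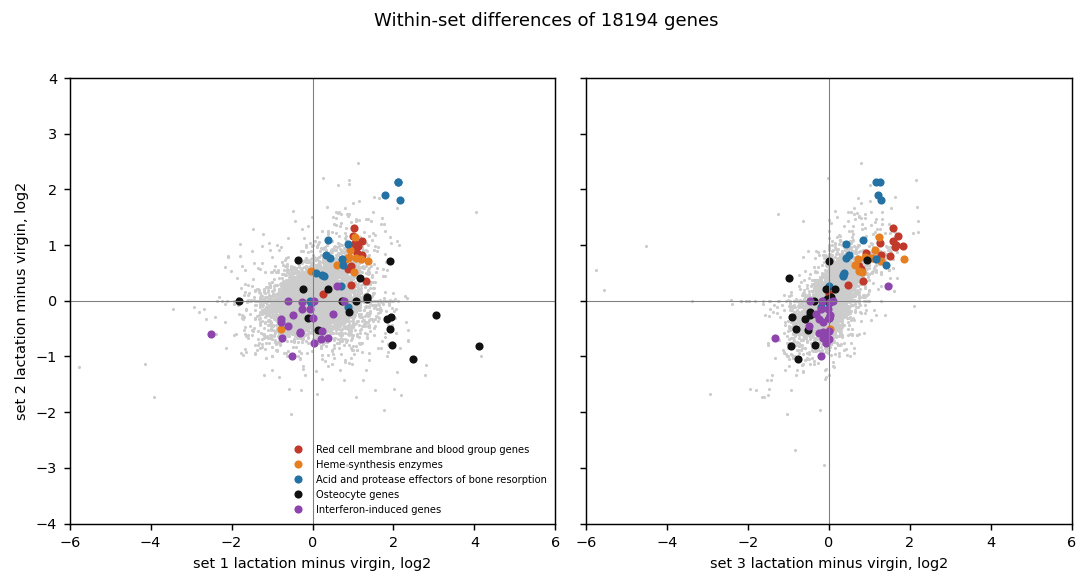
Within-set differences, lactation minus virgin in log2 units, of 18194 genes (grey) in set 2 against set 1 (left) and against set 3 (right), with 5 gene lists coloured. Red cell membrane, heme synthesis and resorption genes lie mostly in the upper right of both panels, while most osteocyte genes lie right of 0 in set 1 and near or left of 0 in set 3.

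Genes at least 2-fold apart in the same direction in every set numbered 23 higher in lactation (0.126% of genes) and 1 lower (0.0055%). The 23 held the osteoclast and resorption genes Ctsk, Acp5, Slc9b2, Atp6v0d2, Dcstamp and Ocstamp, and the red cell genes Rhag, Tspan33, Cldn13 and Cpox. The others were Rec114, C2, Tspan8, Cxcl3, Mst1r, Tac2, Aldh1a1, Dhrs11, Bdh1, Nxpe2, Tlcd4, Serpind1 and Mgst3. These 23 were picked by their values, which are a description. The lower gene, BC018473, differed by -3.91, -1.72 and -1.61 in sets 1 to 3. Its lactation mean lay below the floor, and its fold was at least 1.95.

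RefSeq promoter sequences (GRCm38.p6) were read for the red cell and resorption genes, since these were the groups whose members stood higher together. Shown are the 250 bases before the start of Rhag, the erythroid Rh-associated ammonia channel, Epor, the erythropoietin receptor, Gfi1b, a repressor needed by red cell precursors, and Cpox, the coproporphyrinogen oxidase of heme synthesis. Beside them stand Ctsk, cathepsin K, Acp5, tartrate-resistant acid phosphatase, and Oscar, a collagen receptor of osteoclasts. Capitals in the top 5 mark GATAA on either strand (TTATC on the printed one), the letters of the motif bound by GATA factors. Capitals in Acp5 and Oscar mark CATGTG on either strand (CACATG on the printed one), an E-box of the kind bound by MITF. Acp5 has 3 listed starts, and the one with a match is shown. The genes shown and the motif marked in each were picked by hand, and only promoters with a match are printed. How often the motifs occur is therefore given by the counts after the sequences and not by these examples.
Rhag: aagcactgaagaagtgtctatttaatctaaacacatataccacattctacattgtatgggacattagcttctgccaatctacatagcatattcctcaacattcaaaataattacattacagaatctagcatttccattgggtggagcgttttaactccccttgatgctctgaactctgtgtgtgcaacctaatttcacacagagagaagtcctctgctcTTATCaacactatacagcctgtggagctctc
Epor: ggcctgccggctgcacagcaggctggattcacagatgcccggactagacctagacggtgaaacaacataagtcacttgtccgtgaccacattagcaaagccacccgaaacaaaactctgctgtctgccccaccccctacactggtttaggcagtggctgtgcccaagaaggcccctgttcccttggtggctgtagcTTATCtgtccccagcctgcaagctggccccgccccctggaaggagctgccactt
Gfi1b: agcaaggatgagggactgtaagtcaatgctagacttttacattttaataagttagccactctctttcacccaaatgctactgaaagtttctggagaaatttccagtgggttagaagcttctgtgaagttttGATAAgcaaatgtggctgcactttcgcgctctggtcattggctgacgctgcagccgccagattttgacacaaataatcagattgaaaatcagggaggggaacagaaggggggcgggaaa
Cpox: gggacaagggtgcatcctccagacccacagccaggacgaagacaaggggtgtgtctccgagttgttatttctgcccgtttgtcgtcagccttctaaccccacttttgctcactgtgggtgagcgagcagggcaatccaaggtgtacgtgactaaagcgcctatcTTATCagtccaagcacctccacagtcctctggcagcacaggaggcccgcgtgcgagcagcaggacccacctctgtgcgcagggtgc
Ctsk: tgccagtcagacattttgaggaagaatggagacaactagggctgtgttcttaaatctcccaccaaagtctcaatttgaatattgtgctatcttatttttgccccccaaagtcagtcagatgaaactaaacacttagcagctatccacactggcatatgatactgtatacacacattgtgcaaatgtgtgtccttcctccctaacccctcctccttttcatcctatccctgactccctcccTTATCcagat
Acp5: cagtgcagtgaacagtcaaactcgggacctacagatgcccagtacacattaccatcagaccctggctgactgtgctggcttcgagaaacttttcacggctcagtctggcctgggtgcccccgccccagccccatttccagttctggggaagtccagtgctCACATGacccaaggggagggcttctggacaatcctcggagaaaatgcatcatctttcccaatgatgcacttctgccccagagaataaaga
Oscar: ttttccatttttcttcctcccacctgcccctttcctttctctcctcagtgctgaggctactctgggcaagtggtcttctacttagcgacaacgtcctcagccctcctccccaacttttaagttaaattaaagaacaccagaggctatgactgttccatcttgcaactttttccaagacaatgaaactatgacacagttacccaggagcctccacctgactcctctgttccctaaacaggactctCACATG
They lie at chr17:40810899-40811148 (plus strand) for Rhag, chr9:21963577-21963826 (minus) for Epor, chr2:28621983-28622232 (minus) for Gfi1b and chr16:58669958-58670207 (plus) for Cpox. Ctsk is at chr3:95498960-95499209 (plus), Acp5 at chr9:22130599-22130848 (minus) and Oscar at chr7:3616158-3616407 (minus).

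GATAA was found in 6 of the 10 red cell membrane genes with a listed promoter, 6 of 11 erythroid transcription factor genes and 4 of 11 heme synthesis genes. Of all 14453 genes with a listed promoter, 2929 (20.3%) held it, and so did 4 of 13 resorption genes, Ctsk among them, and 3 of 10 osteoclast genes. A second set of letters, CACCC, which KLF1 binds in red cell genes, was in 8 of 10 red cell membrane genes, 9 of 11 erythroid transcription factor genes and 8 of 11 heme genes, and likewise in 10 of 13 resorption genes, 7 of 10 osteoclast genes and 60.9% of all genes. CATGTG was in 2 of 13 resorption genes, 2 of 10 osteoclast genes, 2 of 11 heme genes, 1 of 10 red cell membrane genes and 10.4% of all genes. Both strands were searched, each motif was counted whether or not it overlapped another, and a gene counted if any of its listed starts had a match. These are matches of letters and not measured binding.

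Genes by which osteoclasts dissolve bone read higher in lactation. Of 17 acid and protease effectors, 13 were higher in every set (all genes, 10.4%), none was lower in every set, and the median difference was 0.56 against 0.01 over all genes. It was 0.70, 0.75 and 0.43 in sets 1 to 3. The median was 0.66 without set 1 and 0.61 without set 3, where 13 and 14 members were higher in both remaining sets (17.8% and 19% of all genes). With an unadjusted p under 0.05 stood 13 members, all higher (5.77% of all genes), and none passed the adjusted threshold.

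Ctsk, the collagen-cutting protease, read 9.83, 10.70 and 10.85 on virgin arrays 1 to 3 and 12.11, 12.83 and 11.94 on lactation arrays 1 to 3. Its groups did not overlap. The difference was 1.83 (SE 0.21), a 3.57-fold higher signal, with an adjusted p of 0.144. Acp5, a secreted phosphatase used as an osteoclast stain, read 10.42, 11.46 and 10.68 on the virgin arrays and 11.96, 13.26 and 12.57 on the lactation arrays. All 3 lactation values lay above all virgin values, with a difference of 1.74 (SE 0.22, adjusted p 0.153). Slc9b2, a sodium-proton exchanger of osteoclasts, read 6.36, 7.11 and 7.02 against 8.19, 9.24 and 8.47. It was 3.49-fold higher (difference 1.80, SE 0.28, adjusted p 0.186).

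The other acid and protease genes differed by less. Car2, the carbonic anhydrase that supplies protons, read 11.09, 12.22 and 11.07 on the virgin and 12.46, 12.86 and 11.84 on the lactation arrays. Its groups overlapped in the deposited values, where virgin array 2 lay above lactation array 3 of another set. Its difference was 0.93 (SE 0.20). Clcn7, the chloride channel that balances the pumped charge, differed by 0.55 (SE 0.10), with 0.44, 0.77 and 0.42 in the 3 sets. Mmp13, a collagenase made by osteoblast-lineage cells, differed by 0.74, 0.75 and 1.15 within sets (mean 0.88, SE 0.25, adjusted p 0.513). Virgin array 2 read 12.51 for Mmp13, above lactation array 3 at 12.42, so the groups overlapped in the deposited values. These 2 arrays are of different sets, with medians of 4.82 and 4.32, and each pair within a set ran the same way. Mmp14, a membrane collagenase of osteocytes chosen after its values were seen, differed by 0.88 in set 1 and by -0.12 and -0.20 in sets 2 and 3.

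**Figure D3:**
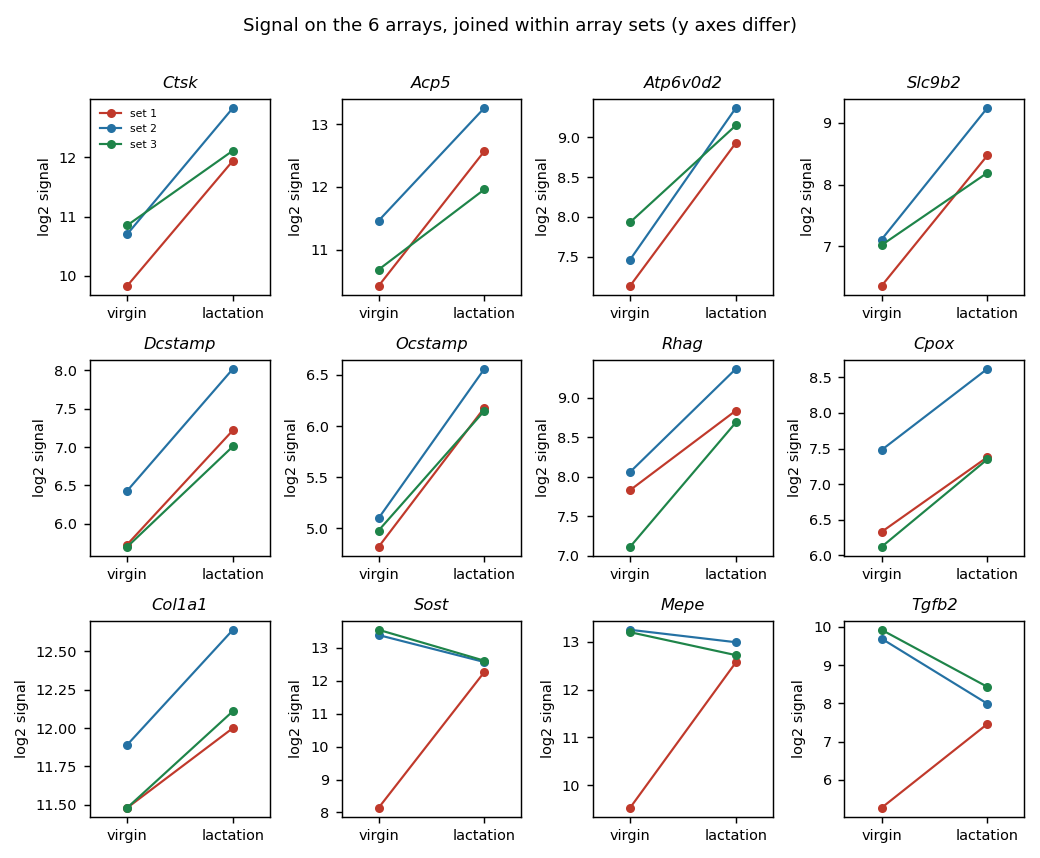
Log2 signal of 12 genes on the 3 virgin and 3 lactation arrays, with a line joining the arrays of 1 set. Ctsk, Acp5, Atp6v0d2, Slc9b2, Dcstamp and Ocstamp slope upward in every set, while Sost, Mepe and Tgfb2 slope upward in set 1 and downward in sets 2 and 3.

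The vacuolar proton pump was higher in part of its subunits. Of 23 subunit genes measured, 10 were higher in every set (43.5%, against 10.4% of all genes) and 1, Atp6v1c2, was lower in every set, with both group means below 4.87. The median difference was 0.24, and it was 0.11, 0.40 and 0.24 in sets 1 to 3. Atp6v0d2, the osteoclast form of the membrane-sector d subunit, also counted among the effectors above, read 7.13, 7.46 and 7.93 on the virgin arrays and 9.15, 9.37 and 8.93 on the lactation arrays. This is a 3.12-fold difference (1.64, SE 0.24, adjusted p 0.175), and a second probe set gave 1.78. Atp6v0d1, the form found in most cells, chosen after its values were seen, differed by 0.07 (SE 0.13). Atp6v1g1, a stalk subunit, differed by 0.84 (SE 0.11, adjusted p 0.153) and its groups did not overlap. Tcirg1, the a3 subunit that takes the pump to the bone-facing membrane, differed by 0.36 (SE 0.08), and Atp6v1b2, a subunit of the ATP-splitting head, by 0.49 (SE 0.11).

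Markers of osteoclasts themselves moved with these genes. Of 18 osteoclast identity genes, which share Ctsk, Acp5 and Atp6v0d2 with the effectors, 11 were higher in every set and none lower (10.4% and 6.11% of all genes). In 9 the groups did not overlap (2.06% of all genes). The list averaged 2.71 to 2.78 above the array median on the virgin arrays and 3.27 to 3.55 on the lactation arrays, and 16 of the 18 had a group mean above 4.87. The share of osteoclasts in the tissue was not measured, and their part in the differences of resorption genes was not tested.

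Both fusion proteins of osteoclast precursors were higher. Dcstamp, the dendritic cell-specific transmembrane protein without which precursors stay single, read 5.73, 6.43 and 5.70 on the virgin arrays and 7.01, 8.02 and 7.22 on the lactation arrays. Its within-set differences of 1.49, 1.59 and 1.31 were close to each other, with a mean of 1.46 (SE 0.11, adjusted p 0.0828, and under 0.05 with 1 probe set per gene). Ocstamp, its partner in fusion, read 4.82, 5.10 and 4.98 against 6.15, 6.56 and 6.18. That is a difference of 1.33 (SE 0.16, adjusted p 0.144), and the groups did not overlap. Oscar, whose promoter is shown above, differed by 1.05 (SE 0.17), with 0.88, 1.52 and 0.74 in the 3 sets.

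Nfatc1, the master transcription factor of osteoclasts, gave values that depended on the probe set. The one with the highest signal differed by 0.01 (SE 0.17), with 0.42, 0.04 and -0.42 in sets 1 to 3. Another differed by 1.54, 1.94 and 1.91, over 2-fold in every set (mean 1.80, unadjusted p 0.0123, adjusted p 0.513), and the 3 others by -0.69 to 0.11 on the mean. Csf1r, the M-CSF receptor through which precursors survive, was higher in every set, by 0.42, 0.88 and 0.31 (mean 0.53, SE 0.15, adjusted p 0.518).

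Signals that act on osteoclasts were followed in a list of 15 genes. In every set 1, Csf1, was higher and 2, Il1b and Tnf, were lower (10.4% and 6.11% of all genes). These members were chosen after their values were seen. Without virgin array 1, Csf1 stood at 0.12 and Tnf at -0.03. Tnfsf11, which encodes RANKL, read 7.76, 7.46 and 7.24 on the virgin arrays and 8.17, 8.19 and 7.41 on the lactation arrays. It differed by -0.35 in set 1 and by 0.73 and 0.93 in sets 2 and 3 (mean 0.44, SE 0.24, adjusted p 0.861). Without set 1 the mean was 0.83. Tnfrsf11b, the RANKL decoy osteoprotegerin, differed by 1.18, 0.40 and -0.98 in the 3 sets and had no common direction.

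General lysosomal enzymes differed little as a list. The 27 cathepsins, hydrolases and lysosomal membrane genes other than those above had a median difference of 0.05. Of these, 6 were higher and 2, Man2b1 and Ctss, lower in every set (10.4% and 6.11% of all genes). Without virgin array 1, Man2b1 and Ctss stood at -0.19 and -0.02. Glb1, the lysosomal beta-galactosidase, read 5.97, 5.63 and 6.23 on the virgin and 6.85, 7.19 and 6.67 on the lactation arrays, a difference of 0.96 (SE 0.19). Hexa, a hexosaminidase subunit, differed by 0.39 (SE 0.09), Ctsb, cathepsin B, by 0.30 (SE 0.07) and Ctsa, cathepsin A, by 0.33 (SE 0.09). Macrophage markers were similarly mixed. Of 15, 4 were higher and 2 lower in every set (10.4% and 6.11% of all genes). Cd68, a lysosomal membrane protein of macrophages and osteoclasts, differed by 1.10 (SE 0.17). Ly86 and Fcgr1 differed by -0.52 and -0.56, and by -0.30 and -0.22 without virgin array 1.

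Metalloproteinases and their inhibitors split by gene. Timp1, an inhibitor of these enzymes, read 8.12, 8.31 and 8.65 on the virgin arrays and 9.57, 9.47 and 9.12 on the lactation arrays (difference 1.03, SE 0.28). Reck, a membrane-bound inhibitor, read 7.25, 7.16 and 7.72 against 7.15, 6.72 and 6.59, a difference of -0.56 (SE 0.10, adjusted p 0.242). Neither gene's groups overlapped in the deposited values, and they lay in opposite directions. For Reck this was a close call between sets. Lactation array 1 at 7.15 lay just below virgin array 2 at 7.16, an array with a higher median (4.82 against 4.57). Mmp9, the gelatinase of osteoclasts and neutrophils, differed by 0.56 (SE 0.13), and Mmp16, a membrane-type enzyme, by 0.74 (SE 0.17). Over the 20 genes of the list the median difference was 0.02.

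Red cell precursor genes read higher in lactation. Of 15 membrane and blood group genes, 14 were higher in every set and none was lower (10.4% and 6.11% of all genes). Their median difference of 1.11 was the largest of the 36 lists. The medians were 1.04, 0.86 and 1.28 in sets 1 to 3, and 1.14 without set 1. The list averaged 2.84 to 3.73 above the array median on the virgin arrays and 4.03 to 4.53 on the lactation arrays. Rhag read 7.83, 8.06 and 7.11 on the virgin arrays and 8.69, 9.37 and 8.84 on the lactation arrays, a 2.47-fold difference (1.30, SE 0.34, adjusted p 0.426). Its groups did not overlap. Ank1, the ankyrin that ties the skeleton to the membrane, differed by 0.95 (SE 0.16), Aqp1, a water channel, by 0.77 (SE 0.11), Ermap, a blood group protein, by 1.17 (SE 0.20), and Icam4, another, by 1.29 (SE 0.26).

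Erythroid transcription factors and the erythropoietin receptor went the same way. Of 13 genes, 10 were higher in every set and none lower (10.4% and 6.11% of all genes), with a median of 0.92. Epor read 6.57, 7.14 and 6.18 on the virgin arrays and 7.42, 7.80 and 7.57 on the lactation arrays (difference 0.97, SE 0.22, adjusted p 0.341). Gfi1b differed by 1.01 (SE 0.16), Tfdp2, a cell cycle partner of E2F factors, by 0.78 (SE 0.15), and Lmo2, a bridging protein of the GATA complex, by 0.61 (SE 0.13). The groups of Epor and Gfi1b did not overlap, while Tfdp2 and Lmo2 were higher within each set but overlapped between sets.

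Heme synthesis was higher at most of its steps. Of 12 genes, 10 were higher in every set (10.4% of all genes), and the median was 0.89. An unadjusted p under 0.05 in limma was found for 11, all higher (5.77% of all genes). Cpox read 6.33, 7.48 and 6.12 on the virgin arrays and 7.35, 8.62 and 7.38 on the lactation arrays. Virgin array 2 lay above 2 lactation arrays of other sets, yet the within-set differences were 1.05, 1.14 and 1.23. The limma fit over all 9 arrays gave an SE of 0.09 and an adjusted p of 0.0828. Urod, which acts just before it, differed by 0.91 (SE 0.13), Fech, which inserts the iron, by 1.13 (SE 0.19), and Alad, which acts early, by 0.95 (SE 0.16). Alas2, the first and rate-limiting enzyme in red cells, differed by 1.27 (SE 0.50), and Alas1, its counterpart in other tissues, by -0.42 (SE 0.19), with -0.79, -0.51 and 0.03 in the 3 sets. Alas1 and Alas2 were chosen after their values were seen.

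Iron genes read higher in part. Tfrc, the transferrin receptor, read 10.33, 10.42 and 9.43 on the virgin and 10.41, 11.29 and 11.06 on the lactation arrays, a difference of 0.86 (SE 0.17), and its 5 other probe sets differed by 0.53 to 1.08. Tfr2, the second receptor, read 5.92, 6.41 and 6.10 against 7.14, 7.27 and 7.16, with no overlap (1.05, SE 0.12, adjusted p 0.144). Slc25a37, the mitochondrial iron importer mitoferrin, differed by 1.00 (SE 0.26) and Fth1, the ferritin heavy chain, by 0.27 (SE 0.08). Over the 14 iron genes, 7 were higher and 1, Hamp, lower in every set (10.4% and 6.11% of all genes). Both group means of Hamp lay below 4.87.

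Cell division genes were higher by less. Of 29, 15 were higher in every set and none lower (10.4% and 6.11% of all genes). The median was 0.24, with 0.05, 0.30 and 0.41 in sets 1 to 3. Mcm2, a subunit of the replication helicase, differed by 0.62 (SE 0.12) without overlap, and Mcm7, another, by 0.42 (SE 0.07). Mki67, the proliferation marker Ki-67, differed by 0.50 (SE 0.11) and Birc5, survivin, by 0.59 (SE 0.13). The median was 0.16 without set 3. The list averaged 3.72 to 4.57 above the array median on the virgin arrays and 4.10 to 4.62 on the lactation arrays, so the groups overlapped, and virgin array 1 at 4.57 lay above lactation arrays 1 and 2. Which cells carried the division genes was not tested. Respiratory chain genes had 17 of 42 members higher and none lower in every set (10.4% and 6.11% of all genes), with a median of 0.11. Cyc1 differed by 0.38 (SE 0.07), Uqcrb by 0.39, Cox6c by 0.29 and Ndufa4 by 0.38.

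Bone matrix genes read higher in lactation, more so in sets 1 and 2 than in set 3. Of 25 osteoblast and matrix genes, 12 were higher in every set and 1, Omd, lower (10.4% and 6.11% of all genes), with a median of 0.37. The medians of sets 1 to 3 were 0.74, 0.40 and 0.06, and the median was 0.18 without set 1. Col1a1, the main chain of bone collagen, read 11.48, 11.89 and 11.48 on the virgin arrays and 12.11, 12.64 and 12.00 on the lactation arrays. The difference was 0.63 (SE 0.11, adjusted p 0.240) without overlap, and a second probe set gave 0.46. Col1a2, its partner chain, differed by 0.13 (SE 0.08), and its other probe sets gave 0.35 and 0.75. Col12a1, a fibril-associated collagen, read 8.32, 8.76 and 8.99 against 9.64, 10.23 and 9.63 (1.14, SE 0.17, adjusted p 0.175), also without overlap. Col5a1 and Col5a2, chains of the collagen that sets fibril diameter, differed by 0.96 (SE 0.14) and 0.73 (SE 0.13), and Col11a1, its close relative, by 0.71 (SE 0.11).

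Genes that fold, trim and cross-link collagen had a median of 0.22 over 21 genes, with 0.67, 0.14 and 0.00 in the 3 sets. Of these, 7 were higher in every set and none lower (10.4% and 6.11% of all genes). Serpinh1, the collagen chaperone HSP47, differed by 0.80 (SE 0.18), Lox, the cross-linking oxidase, by 0.75 (SE 0.17), Bmp1, which trims procollagen, by 0.95 (SE 0.23), and Plod1, a lysyl hydroxylase, by 0.49 (SE 0.13, and 0.32 without set 1). In all but Plod1 the groups did not overlap. Alpl, the alkaline phosphatase of mineralizing cells, differed by 1.05, -0.11 and -0.39, and Sparc, osteonectin, by -0.25, 0.68 and 0.25.

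Osteocyte genes were split by set. Of 20, 2, Cd109 and Pdpn, were higher in every set and none was lower (10.4% and 6.11% of all genes). The set 3 difference of Cd109 rounds to 0.00. The list medians were 1.26, -0.11 and -0.35 in sets 1 to 3. Without set 1, 4 members were higher and 10 lower in both remaining sets (17.8% and 14.4% of all genes), and the median was -0.24. In that fit 7 members were lower and 2 higher with an unadjusted p under 0.05, against 3.97% and 5.9% of all genes. Sost read 8.14, 13.39 and 13.55 on the virgin arrays and 12.61, 12.57 and 12.27 on the lactation arrays. Virgin array 1 lay far below the other 5, so the differences were 4.12, -0.82 and -0.95 and the mean was 0.78 (SE 1.00, adjusted p 0.885). A second Sost probe set gave 2.39, -1.68 and -1.09.

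Mepe and Phex were also higher in set 1 and lower in sets 2 and 3. Mepe, a matrix phosphoglycoprotein of osteocytes, differed by 3.04, -0.26 and -0.48. Phex, the phosphate-regulating endopeptidase, differed by 1.91, -0.50 and -0.81. Dmp1, a mineral-binding matrix protein, read 11.90 on virgin array 1 and 13.24 to 13.88 on the other 5 arrays, and its differences were 1.34, 0.04 and -0.05. Cd109, a surface protein that binds TGF-beta, differed by 0.88 (SE 0.32) and Pdpn, the podoplanin of young osteocytes, by 0.49 (SE 0.28), which were 0.36 and 0.07 without set 1. Dock9, a guanine exchange factor, differed by 0.13 in set 1 and by -0.52 in both other sets.

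TGF-beta and BMP genes were split by set as well. Over the 25 TGF-beta and BMP genes, 2, Tgfbr1 and Bmp5, were higher and 3, Id2, Grem1 and Bmp4, lower in every set (10.4% and 6.11% of all genes). The medians were 0.49, -0.17 and -0.17 in sets 1 to 3. In sets 2 and 3 alone 14 of the 25 were lower and 2 higher in both (14.4% and 17.8% of all genes). Without set 1, 8 were lower and 0 higher at an unadjusted p under 0.05 (3.97% and 5.9% of all genes), and 0 of 45101 probe sets were called by limma. Tgfb2, a ligand, read 5.27, 9.69 and 9.92 on the virgin arrays and 8.43, 7.99 and 7.46 on the lactation arrays. Its differences were 2.19, -1.70 and -1.50. Ltbp1, which stores the latent ligand in the matrix, differed by 1.32, -1.25 and -1.09, and Id1, a target of BMP signals, by 1.55, -1.61 and -1.81. Tgfb2, Ltbp1 and Id1 were chosen after their values were seen. Id2, a related target, was lower in every set, with -0.48, -0.42 and -0.57 in sets 1 to 3 (mean -0.49, SE 0.12, adjusted p 0.364). Tgfbr1, a receptor, differed by 0.53 (SE 0.16), Acvr1, a BMP receptor, by 0.33 (SE 0.14, and 0.14 without set 1) and Smad7, an inhibitor of the pathway, by 0.30, -0.74 and -0.86.

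Hormone and Wnt genes were mixed. Of 19 parathyroid hormone, vitamin D and mineral genes, 4 were higher and 0 lower in every set (10.4% and 6.11% of all genes). Their median was 0.04, and 3 were higher at an unadjusted p under 0.05 in limma (5.77% of all genes). In both of sets 2 and 3, 4 were higher and 4 lower. Pth1r, the receptor of parathyroid hormone and its lactation relative PTHrP, differed by 1.76, 0.05 and -0.35. Vdr, the vitamin D receptor, differed by 0.88, 0.26 and 0.10, and Ank, a pyrophosphate exporter, by 0.68 (SE 0.20, and 0.45 without virgin array 1). S100g, a calcium-binding protein, differed by 0.27 with both means below 4.87. Of 14 receptors and targets of reproductive and growth hormones, 1 was higher and 2 were lower in every set (10.4% and 6.11% of all genes). Igfbp4 was higher by 0.21 (SE 0.08), and the mean differences of the lower genes were -0.20 for Igf1r and -0.37 for Igfbp5. Among 24 Wnt genes, 2 were higher and 1 lower in every set (10.4% and 6.11% of all genes). In both of sets 2 and 3, 2 Wnt genes were higher and 10 lower (17.8% and 14.4% of all genes). Sfrp2, a secreted modulator, read 5.14, 4.75 and 5.34 on the virgin and 4.37, 4.23 and 4.03 on the lactation arrays, a difference of -0.87 (SE 0.18, adjusted p 0.312). Its groups did not overlap, and the lactation mean lay below 4.87. Sfrp1, Wif1 and Sfrp4, other secreted modulators, differed by 0.24, 0.44 and 0.45 with SEs of 0.12, 0.26 and 0.26; without virgin array 1, Wif1 and Sfrp4 stood at 0.15 and 0.14.

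**Figure D4:**
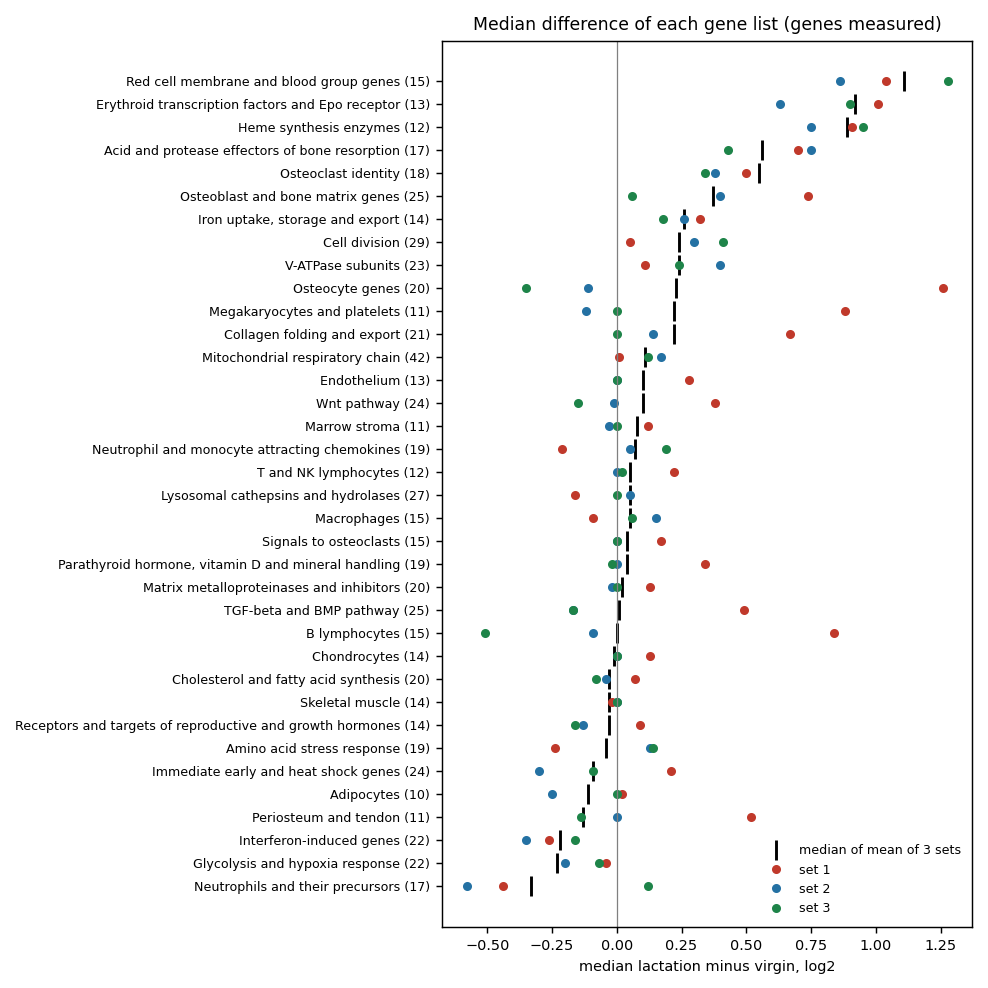
Median lactation minus virgin difference in log2 units of 36 gene lists, with the number of genes measured in brackets, as the mean over sets (black bar) and in each array set (dots). The red cell membrane list has medians of 0.86 to 1.28 and the heme list of 0.75 to 0.95 in the 3 sets, while the osteocyte list runs from -0.35 to 1.26.

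Interferon-induced genes read lower. Of 22, 10 were lower in every set (6.11% of all genes) and 1, Rsad2, was higher, and 7 were lower with an unadjusted p under 0.05 (2.27% of all genes). The median was -0.22, with -0.26, -0.35 and -0.16 in sets 1 to 3. Without set 1 the median was -0.27, 13 were lower in both remaining sets (14.4% of all genes) and 0 had an unadjusted p under 0.05. Without set 3, 12 were lower in both (15.6%) and the median was also -0.27. Ifit3, an antiviral protein with tetratricopeptide repeats, read 5.76, 6.14 and 5.57 on the virgin arrays and 4.24, 5.47 and 5.01 on the lactation arrays. It was 1.89-fold lower (difference -0.92, SE 0.27, adjusted p 0.521) without overlap. Ifit2, its relative, differed by -0.45 (SE 0.14, and -0.29 without set 1), and Psmb8 and Psmb9, subunits of the immunoproteasome, by -0.34 and -0.37 (SE 0.11 and 0.12).

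Neutrophil genes were lower in sets 1 and 2. Of 17, 6 were lower and 1, Mmp9, higher in every set (6.11% and 10.4% of all genes), with medians of -0.44, -0.58 and 0.12. S100a8 and S100a9, calcium-binding proteins of neutrophil cytosol, differed by -0.24 (SE 0.07) and -0.19 (SE 0.08), and Camp, a granule peptide precursor, by -0.21 (SE 0.08). The granule enzyme genes, such as Elane and Mpo, had no common direction, with set 3 differences of 0.23 and 0.19 against -0.80 and -0.33 in set 1; both were chosen after their values were seen. B lymphocyte genes had a median of 0.84 in set 1, where virgin array 1 was low, and of -0.09 and -0.51 in sets 2 and 3. Cd24a, also abundant on red cell precursors, differed by 0.37 (SE 0.09), and Ms4a1, the B cell marker CD20, by 0.62 (SE 0.20, and 0.33 without set 1).

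Glycolytic genes were slightly lower. Of 22, 5 were lower and 1, Hk1, higher in every set (6.11% and 10.4% of all genes). The median was -0.23, with medians of -0.04, -0.20 and -0.07 in sets 1 to 3. Pkm, pyruvate kinase, read 10.08, 9.97 and 9.17 on the virgin and 8.97, 9.40 and 9.42 on the lactation arrays (difference -0.48, SE 0.12). Its groups overlapped, since virgin array 3 lay below 2 lactation arrays. Tpi1, Aldoa and Ldha differed by -0.24, -0.22 and -0.19. Hmgcs1, which starts cholesterol synthesis, differed by -0.60 (SE 0.12). Of the 20 genes of that pathway, 5 were lower and 1 higher in every set (6.11% and 10.4% of all genes). Asns, asparagine synthetase, differed by 0.76 (SE 0.22) without overlap. The 19 amino acid stress response genes did not follow it as a list, with a median of -0.04. Of these, 3 were higher and 3 lower in every set (10.4% and 6.11% of all genes).

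The smallest p-value belonged to Cxcl3, a chemokine that attracts neutrophils. It read 4.39, 5.01 and 4.71 on the virgin arrays and 6.19, 6.38 and 6.15 on the lactation arrays. The difference was 1.54 (SE 0.09, adjusted p 0.0776), at least 2.59-fold, since the virgin mean lay below 4.87. Ccl6, a monocyte chemokine, differed by 0.54 (SE 0.17), and over the 19 chemokine genes the median was 0.07, so the list as a whole did not follow Cxcl3. Tlcd4, a membrane protein, read 4.02, 4.21 and 3.83 against 5.14, 5.68 and 5.10, at least 1.36-fold.

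Among the largest differences in a common direction were genes outside the lists. Pilrb1, a myeloid receptor, had the largest mean (2.03, SE 0.65), which rested on set 1, with 4.03, 1.59 and 0.46 in the 3 sets. C2, a complement component, read 6.06, 6.33 and 6.69 against 8.33, 8.19 and 7.59 and was 3.20-fold higher (1.68, SE 0.25). Rec114, a gene of meiotic recombination, differed by 1.69 (SE 0.20), Tspan8, a tetraspanin, by 1.57 (SE 0.26), Gm20161 by 1.73 (SE 0.26) and Edil3, an integrin ligand, by 1.47 (SE 0.30). The virgin means of Rec114, Gm20161 and Edil3 lay below 4.87, and their folds were at least 2.43, 1.47 and 1.93. Mst1r, the receptor of macrophage-stimulating protein, read 4.84, 5.26 and 5.06 against 6.38, 6.64 and 6.53 (difference 1.46, SE 0.14, adjusted p 0.118).

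BC018473 had the largest (-2.41, SE 0.76), with its lactation mean below 4.87. Ltbp2, a matrix relative of the latent TGF-beta binding proteins, read 4.82, 6.70 and 6.40 on the virgin and 4.93, 5.12 and 4.24 on the lactation arrays. Its differences were -0.58, -1.58 and -1.47, and virgin array 1 was again the low one. Smim5, a small membrane protein, read 7.56, 7.45 and 7.04 against 6.02, 6.45 and 6.56 (mean difference -1.01, SE 0.23), and its groups did not overlap. Iigp1, an interferon-induced GTPase, differed by -1.20 (SE 0.48), Igkv8-30, an antibody light chain segment, by -0.95 (SE 0.22), and S100a6, a calcium-binding protein, by -0.89 (SE 0.33). Gpr84, Scrg1, 9030619P08Rik and Ceacam10 differed by -0.96, -0.92, -0.88 and -0.88, with adjusted p-values of 0.579 to 0.787. Without virgin array 1 the differences were -0.47 for Gpr84, -0.37 for 9030619P08Rik, -0.43 for Ceacam10 and -0.41 for S100a6, and without virgin array 3 that of Scrg1 was -0.60. Without virgin array 1, BC018473 stood at -1.38.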

How the data were processed

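Affymetrix mouse expression arrays had been hybridised with RNA of 3 samples per group. The deposited values are log2 signals; per the submitters' processing notes, RMA was among the tools used; the version of RMA is not given in the sources used here. RMA corrects background, equalises the distribution over arrays run together and sums the probes of a probe set. Arrays were joined into a set where over 1% of probe sets held exactly equal values; that the sets were normalized apart is read from these ties and from array medians, and no source used here states it. The set was a block in limma 3.58.1 (R 4.3.3) over all 9 arrays and 45101 probe sets, with Benjamini-Hochberg adjustment and 4 residual degrees of freedom. The fit was also run on simulated arrays with known differences. Their noise was independent and equal in every set, without exact ties, so that run cannot check the p-values of these data. A gene was read by its probe set with the highest mean, and 4.87, the 40th percentile of these means, was the floor. A log2 difference of 1 in each set counted as 2-fold.

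Named were called genes, the 12 largest differences per direction that had 1 sign in all sets, an unadjusted p under 0.05 and a mean above the floor, a fixed group of bone genes, and up to 4 members of smallest p per list. The comparison, the 36 gene lists and the named bone genes were chosen with earlier results of these data known. Outside this rule, and chosen after their values were seen, are the single members named beside small counts (Atp6v1c2, Man2b1, Ctss, Hamp, Omd, Rsad2, Hk1, Pdpn, Bmp5, Grem1, Bmp4, Igfbp5) and the genes so marked in the text. Alternatives were other fits and scalings, a filter on low signal, and leaving out each array or set. No depth applies to arrays, whose number limits the precision.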

Additional observations from a re-analysis of the deposited data

How the results depend on the processing

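No probe set was called by the set-block fit or by the fits without the block, with 6 arrays, with median centring, with the filter on low signal, with trend and robust settings, or without any 1 array or set. Quantile normalization called 1 and the fit with 1 probe set per gene called 4. With the replicate number as a replicate block, 0 probe sets were called and 499 had an unadjusted p under 0.05; the replicate numbers pair no samples, since the array sets cross them, and without any block the number was 551 against 2788 with the set block. Leaving out 1 array gave 1974 to 3538 such probe sets. Leaving out a whole set gave 3603 without set 1, 1360 without set 2 and 2207 without set 3. The sign of 15 of 155 genes turned under at least 1 of 20 alternatives. Under quantile normalization Nfatc1 stood at -0.01. Without set 1, Sost was -0.89, Phex -0.66, Mepe -0.37, Tnfrsf11b -0.29, Alpl -0.25, Nfatc1 -0.19, Mmp14 -0.16 and Pth1r -0.15. Without set 2, Tgfb2 was 0.34 and Ltbp1 0.11. Without set 3, Fmod was 0.58, Tgfb2 0.24, Ltbp1 0.04 and Atp6v0d1 -0.07. Leaving out 1 array at a time, the range was -0.71 to 1.58 for Sost, -0.55 to 0.63 for Phex, -0.21 to 1.26 for Mepe, -0.34 to 0.90 for Tnfrsf11b, -0.24 to 0.48 for Alpl, -0.19 to 0.19 for Nfatc1, -0.20 to 0.39 for Mmp14 and -0.03 to 0.86 for Pth1r. It was -1.57 to 0.36 for Tgfb2, -1.04 to 0.01 for Ltbp1, -1.02 to 0.45 for Fmod, -3.35 to 0.25 for Prg4, -0.06 to 0.23 for Atp6v0d1, -0.39 to 0.03 for Bmp4 and -0.02 to 0.41 for Bmp5. The cause of these turns was not tested beyond the arrays left out. The medians of 15 of the 36 lists kept 1 sign under every alternative. The list counts without set 1 and without set 3 were added after seeing the data.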

Other observations

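Probe sets outside the choice of 1 per gene held 2 further low p-values. A second Tfrc probe set differed by 1.13, 0.94 and 1.17 in sets 1 to 3 (mean 1.08, adjusted p 0.0828 in limma), and a probe set paired with no gene differed by -1.25, -1.58 and -1.08 (mean -1.30, adjusted p 0.0828).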
